A study of Caenorhabditis elegans with 4 samples.

Results

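Peptide signalling genes were followed in ribosome profiling libraries of whole young adult Caenorhabditis elegans, a technique that sequences the messenger RNA fragments protected by ribosomes. The members were all genes of the deposited count table whose symbol is flp, nlp or ins followed by a number, which gave 138 of 20179 genes: 31 flp genes (FMRFamide-like peptides), 69 nlp genes (other neuropeptide-like proteins) and 38 ins genes (insulin-like peptides). The 4 libraries came from 2 groups of 2: the wild-type strain N2, and a strain mutant in 2 Y-box genes at once, with cey-4(ok858) beside cey-1(rrr12). Y-box proteins carry a cold-shock domain with which they bind messenger RNA, and polysome formation is named in the title of the series as a process they act in. Worms of both groups were young adults grown from hatched larvae on plates with OP50 bacteria and then frozen in liquid nitrogen. The labels do not say whether the libraries of a group came from separate cultures, so the p-values below measure the spread between these libraries, which may be technical.

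Neuropeptides and insulin-like peptides are made as longer precursors, cut at basic residues by proprotein convertases, trimmed, often amidated, and released from dense-core vesicles. FMRFamide-like peptides end in Arg-Phe-amide and act mainly through G-protein coupled receptors, whereas insulin-like peptides act on DAF-2, the worm insulin and IGF receptor, either activating it or opposing it. The nlp name is the broadest: beside neuronal peptides it covers antimicrobial peptides of the epidermis and NLP-40, a peptide secreted by the intestine.

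Library totals ranged from 22303560 to 32913332 gene counts, so that 3 counts corresponded to 0.0911 to 0.135 CPM (read counts relative to the library total, scaled with TMM factors). Both mutated genes were nearly lost from the mutant libraries: cey-4 (WBGene00000475) fell from 265 ± 2.40 to 1.70 ± 0.24 CPM and cey-1 (WBGene00000472) from 71.7 ± 2.67 to 3.99 ± 0.206 CPM (SD, n = 2 libraries; edgeR adjusted p = 9.28e-74 and 1.3e-54). Markers of several tissues in a whole worm moved with genotype as well, while 17.4% of all tested genes were higher and 16.6% lower. Of oocyte markers, 19 of 20 were lower (median log2 fold change -1.02), with summed levels of 6955 and 7209 CPM in N2 against 4237 and 4189 CPM in the mutant. Of sperm markers, 20 of 21 tested were higher (median 0.55; summed levels of 1126 and 1175 against 1561 and 1644 CPM), as were 15 of 20 muscle markers (median 0.40; 22210 and 23510 against 35540 and 35820 CPM) and 9 of 18 epidermal markers (median 0.35; 5450 and 5798 against 5802 and 5917 CPM). Of 19 intestinal markers, 10 were higher and 2 lower (median 0.14; 12280 and 12370 against 13640 and 13820 CPM), and of 30 neuronal markers 8 were higher and 2 lower (median 0.08; 721 and 718 against 804 and 805 CPM). The neuronal list thus had 33.3% called, near the 34.0% of all tested genes. Abundant genes weigh most in these sums. In the neuronal sum unc-44 alone had a mean of 289 CPM in N2 and 354 CPM in the mutant. In the epidermal sum col-19 had 4860 and 4953 CPM. No marker on these lists was at 0 in all libraries. In whole worms fewer cells of a type and less RNA per cell cannot be told apart, no RNA-seq was analysed here, and the part of tissue makeup in the peptide gene results was not tested.

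Few peptide genes passed the test, and those that did moved in both directions. Of the 138 members, 107 had enough counts to be tested. In the mutant 12 rose, 6 fell and 89 did not pass (edgeR quasi-likelihood test, Benjamini-Hochberg adjusted p under 0.05 over all tested genes), so that 16.8% of the tested members were called against 34.0% of all 13086 tested genes. By direction, 11.2% of members were higher and 5.61% lower, against 17.4% and 16.6% of all genes. The mutant libraries lay wholly above or below the N2 libraries for 56 members (52.3%) and for 64.8% of all tested genes. Members had few counts: the median of their mean counts was 61.8, against 233 for all tested genes, and their median standard error (SE) was 0.196 on the log2 scale against 0.108.

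The called share rose with depth among members and among all genes. Among genes with a mean of under 50 counts, 2 of 45 members (4.44%) and 12.1% of all tested genes were called, and between 50 and 200 counts these were 6 of 40 (15.0%) and 26.7%. From 200 to 1000 counts, 6 of 17 members (35.3%) and 41.0% of all genes were called. Above 1000 counts, 4 of the 5 members (80.0%) were called, against 55.1% of all genes. These shares are a description and the difference was not tested.

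**Figure D1:**
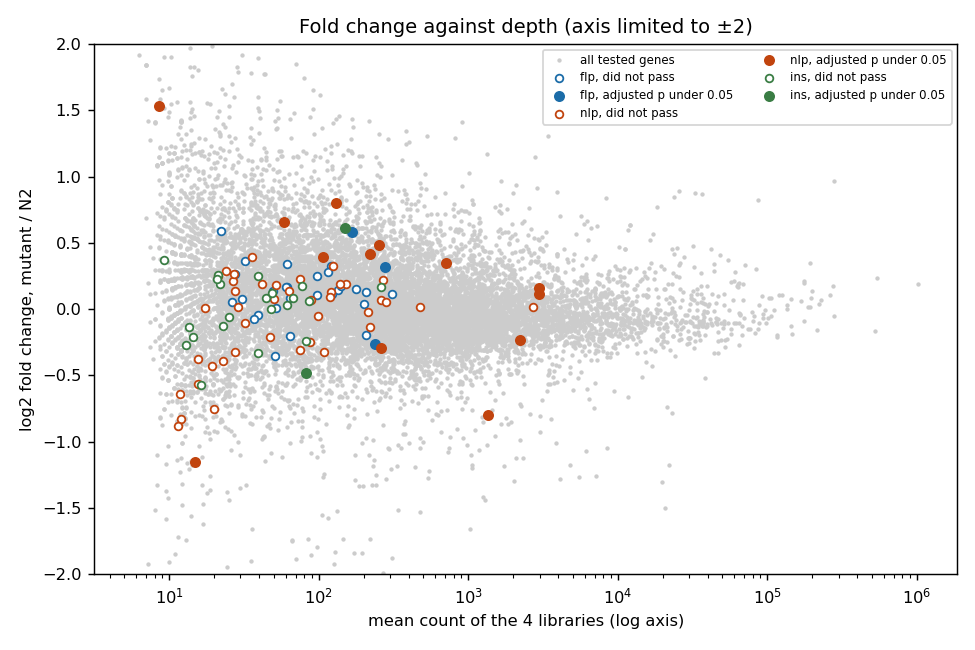
Log2 fold change of the mutant over N2 (vertical axis, limited to ±2) against the mean count of the 4 libraries (horizontal log axis). Grey points are the 13086 tested genes and coloured points the 107 tested peptide genes, filled where they passed the test; the members lie mainly below 1000 counts, where the spread of all genes widens.

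The classes had medians close to each other. The median log2 fold change was 0.13 over 30 tested flp genes, 0.07 over 54 nlp genes and 0.06 over 23 ins genes, beside 0.01 over all tested genes. When the libraries were scaled on 30 neuronal genes instead, all medians moved (by -0.095 over all tested genes) to 0.04, -0.02 and -0.04, and on the somatic marker lists by -0.214 over all tested genes to -0.08, -0.14 and -0.16, so the sign of a class median depends on the scaling. On the somatic scaling 4 members were higher and 15 lower (862 and 5118 genes over the whole table), and on the neuronal scaling 8 and 8 (1492 and 3590). Of the flp genes 2 rose and 1 fell (10.0% called), of the nlp genes 9 rose and 4 fell (24.1%), and of the ins genes 1 rose and 1 fell (8.70%), against 34.0% of all tested genes. Without the epidermal antimicrobial genes, 7 of 44 nlp genes (15.9%) were called. Over the same 3 classes, 24 of 30, 33 of 54 and 13 of 23 tested genes had a log2 fold change above 0, as did 6751 of all 13086 tested genes. Summed over the class, flp genes had 112 and 118.6 CPM in N2 and 122 and 129 CPM in the mutant. The nlp genes summed to 638 and 641 against 630 and 648 CPM, and the ins genes to 46.5 and 44.8 against 47.3 and 48.6 CPM. The summed flp and ins levels were thus higher in both mutant libraries than in both N2 libraries, by log2 ratios of 0.12 and 0.07, and turned to -0.09 and -0.14 on the somatic scaling (0.03 and -0.03 on the neuronal one). An exact permutation test of 2 against 2 libraries cannot go below 0.33, so no test was made of these sums.

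**Figure D2:**
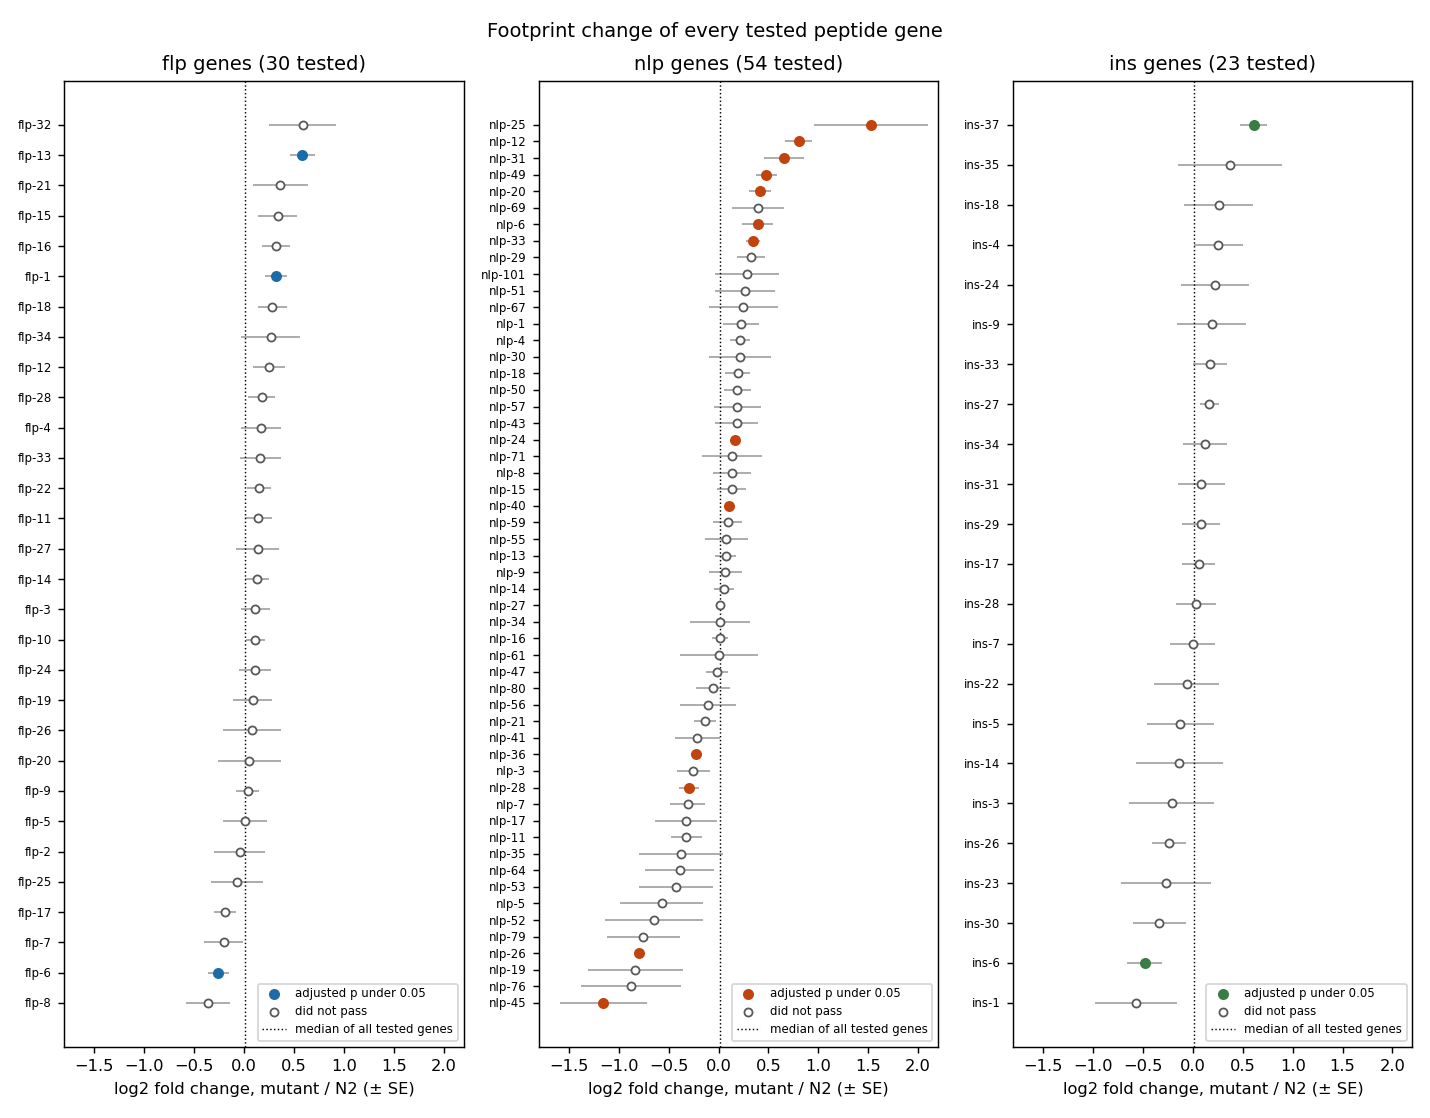
Log2 fold change of the mutant over N2 with its SE for each tested flp, nlp and ins gene, filled where the adjusted p was under 0.05; the dotted line is the median of all tested genes. Filled points lie on both sides in every class, and the widest bars belong to genes with few counts.

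Among the flp genes, the clearest change was a rise of flp-13, which encodes peptides released by the ALA neuron that bring on sleep after cellular stress. flp-13 (WBGene00001456) had 4.68 and 5.32 CPM in N2 and 6.63 and 8.41 CPM in the mutant, so that both mutant libraries lay above both N2 libraries. Its log2 level rose by 0.58 (SE 0.127, edgeR adjusted p = 1.51e-04), and passed under all 13 alternatives at 0.37 to 0.75. flp-1, which is needed for normal body bends during locomotion, had 8.23 and 10.1 CPM in N2 and 10.2 and 12.7 CPM in the mutant. Its lowest mutant library was barely above its highest N2 library. flp-1 (WBGene00001444) rose by 0.32 (SE 0.106, edgeR adjusted p = 0.017; 4.24e-04 to 0.444 over the alternatives). It did not pass without N2 replicate 1 (0.16, edgeR adjusted p = 0.308), without mutant replicate 2 (0.16, 0.395), or on the neuronal scaling (0.22, 0.108).

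flp-6 was the only flp gene that passed as lower in the main test. DESeq2, upper-quartile factors and limma-voom did not make that call. flp-6 (WBGene00001449) had 8.99 and 9.67 CPM in N2 and 7.73 and 7.83 CPM in the mutant, at a log2 fold change of -0.26 with SE 0.105 ( edgeR adjusted p = 0.0471; 1.72e-04 to 0.296 over the alternatives). It did not pass without N2 replicate 2 (-0.21, edgeR adjusted p = 0.192), mutant replicate 1 (-0.25, 0.19) or mutant replicate 2 (-0.27, 0.134).

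The remaining flp genes with many counts did not pass. flp-10 and flp-17 both encode ligands of the receptor EGL-6, which restrains egg laying. flp-10 had 11.9 and 9.70 CPM in N2 and 12.1 and 11.3 CPM in the mutant (log2 fold change 0.11, edgeR adjusted p = 0.403; -0.02 without N2 replicate 2). flp-17 had 7.78 and 8.30 against 6.70 and 7.38 CPM (-0.19, edgeR adjusted p = 0.187). It passed as lower on the neuronal scaling (-0.29, edgeR adjusted p = 0.0365) and on the somatic one (-0.408, edgeR adjusted p = 0.00262). flp-14 had 6.08 and 8.59 against 7.84 and 8.05 CPM (0.13, edgeR adjusted p = 0.464; 0.0171 at 0.38 without N2 replicate 2, and -0.12 without N2 replicate 1). Thus for flp-10 and flp-14 the sign depended on a single N2 library.

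A few flp genes with known roles, chosen after their values were seen, show what the depth allowed. flp-11, the peptide gene of the sleep-promoting RIS neuron, had 4.40 and 4.96 CPM in N2 and 4.91 and 5.44 CPM in the mutant (0.14, edgeR adjusted p = 0.453). flp-18 and flp-21, which encode ligands of the receptor NPR-1, lay higher in both mutant libraries but did not pass (log2 fold changes of 0.28 and 0.36, edgeR adjusted p = 0.13 and 0.33). The extremes of the class were flp-32 at 0.59 (SE 0.334) and flp-8 at -0.36 (SE 0.22), neither of which passed (edgeR adjusted p = 0.178 and 0.216); flp-8 passed on the somatic scaling (-0.60, 0.0268). flp-23 was not tested, with 2 counts in 1 N2 library and 0 in the others.

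**Figure D3:**
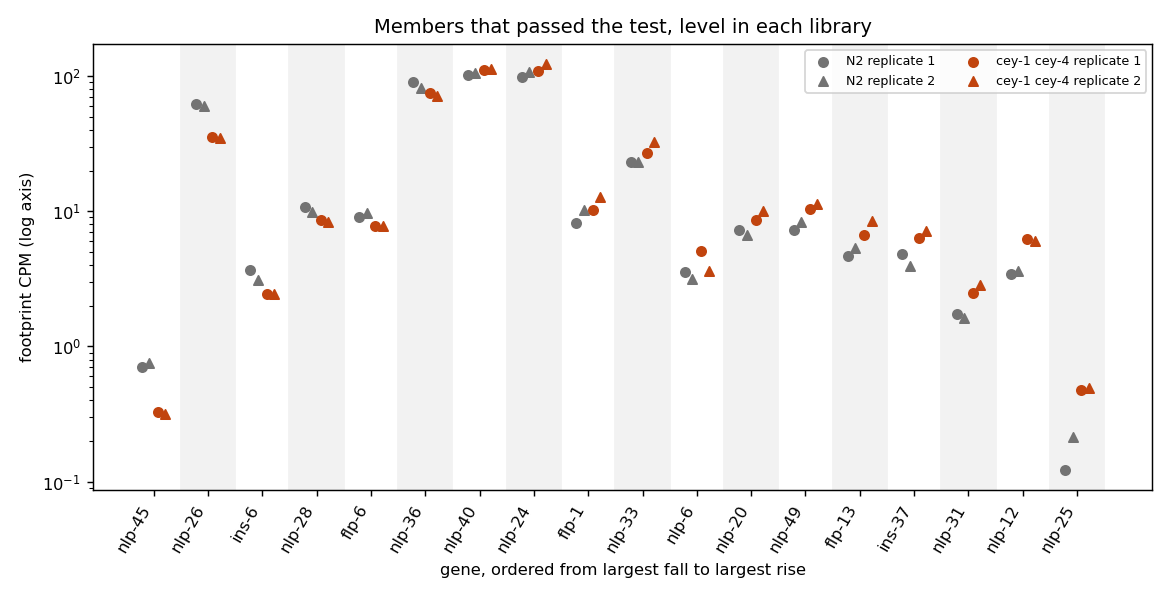
Footprint level in CPM (log axis) in each library of the 18 members that passed the test, ordered from the largest fall to the largest rise; grey symbols are N2 and orange symbols the mutant, circles replicate 1 and triangles replicate 2. For every gene shown, both mutant libraries lie on one side of both N2 libraries.

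Of the members that passed under all 13 alternatives, the largest rise was that of nlp-12. This gene encodes cholecystokinin-like peptides of the stretch-sensitive interneuron DVA, which raise acetylcholine release at the neuromuscular junction. It had 3.43 and 3.63 CPM in N2 and 6.23 and 6.07 CPM in the mutant, with a wide gap between the groups. nlp-12 (WBGene00003750) rose by 0.80 (SE 0.138, edgeR adjusted p = 1.91e-06) and passed under all 13 alternatives at 0.59 to 0.85. nlp-49, whose peptide acts on the receptor SEB-3 in arousal, had 7.32 and 8.27 CPM in N2 and 10.4 and 11.3 CPM in the mutant. nlp-49 (WBGene00019160) rose by 0.48 (SE 0.102, edgeR adjusted p = 1.01e-04) and also passed under all 13, at 0.27 to 0.56.

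Smaller rises among the other nlp genes were lost under other methods and scalings as well as with single libraries left out. DESeq2 and the somatic scaling ended the calls of both nlp-20 and nlp-6. The nlp-6 call was also lost on the neuronal scaling, without the low-count filter and with limma-voom. nlp-20 (WBGene00003758) had 7.23 and 6.65 CPM in N2 and 8.57 and 10.1 CPM in the mutant, a rise of 0.42 (SE 0.11, edgeR adjusted p = 0.00172; 6.36e-04 to 0.15 over the alternatives). Leaving out mutant replicate 2 ended that call (0.30, edgeR adjusted p = 0.101). nlp-6 (WBGene00003744) had 3.55 and 3.16 CPM in N2 and 5.09 and 3.64 CPM in the mutant, so that mutant replicate 2 lay close to the N2 libraries. Its rise of 0.39 (SE 0.157, edgeR adjusted p = 0.0455; 0.0072 to 0.761 over the alternatives) was lost without mutant replicate 1 (0.11, adjusted p = 0.761) and without N2 replicate 2 (0.32, adjusted p = 0.168).

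nlp-40, whose peptide is released by the intestine at each defecation cycle and acts on the receptor AEX-2, was among the nlp genes with most counts. nlp-40 (WBGene00022276) had 101 and 106 CPM in N2 and 111 and 113 CPM in the mutant, a rise of 0.11 (SE 0.0428, edgeR adjusted p = 0.0377; 0.0027 to 0.824 over the alternatives). That call was lost without N2 replicate 1 (0.07, edgeR adjusted p = 0.235), mutant replicate 1 (0.12, 0.12) or mutant replicate 2 (0.10, 0.257), and the log2 fold change was 0.02 on the neuronal scaling and -0.10 on the somatic one. The intestinal markers had a median of 0.14 in the same libraries.

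nlp-36 and nlp-45 fell. nlp-36 (WBGene00007185), another abundant member, had 90.0 and 82.1 CPM in N2 and 75.2 and 71.5 CPM in the mutant. It fell by 0.23 (SE 0.0478, edgeR adjusted p = 7.62e-05) and passed under all 13 alternatives, at log2 fold changes of -0.44 to -0.16. nlp-45 (WBGene00020136) rested on few counts, 23 and 21 in N2 and 9 and 7 in the mutant. Its fall, a log2 fold change of -1.16 with SE 0.437 (edgeR adjusted p = 0.0323; 0.00654 to 0.16 over the alternatives) was at -1.22 to -1.10 with each library left out, but it passed in none of those fits. Without N2 replicate 1 or 2 the edgeR adjusted p was 0.0926 and 0.126, and without mutant replicate 1 or 2 it was 0.16 and 0.145.

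The epidermal nlp genes moved apart from one another. The list held 11 genes of the antimicrobial family, nlp-24 to nlp-34, of which several are induced in the epidermis by fungal infection and wounding. Of the 10 tested, 4 rose, 2 fell and 4 did not pass, with a median log2 fold change of 0.19 (0.01 over all tested genes; -0.02 on the somatic scaling), and nlp-32 was at 0 counts in all libraries. Their summed level was 304 and 302 CPM in N2 and 286 and 310 CPM in the mutant, so that the groups overlapped. The list held 10 of the 107 tested members and 6 of the 18 calls (6 of its 10 tested genes, while 34.0% of all tested genes were called), and without it 12 of 97 members (12.4%) were called. Its genes had more counts than the members at large, with a median mean count of 194 against 61.8, and the part of depth in this share was not tested.

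nlp-26 had the fall with the lowest p among all members. nlp-26 (WBGene00003764) had 61.9 and 59.8 CPM in N2 and 35.1 and 34.9 CPM in the mutant, 0.576 of its N2 level. It fell by 0.80 (SE 0.0542, edgeR adjusted p = 3.98e-21), and the log2 fold change stayed between -1.01 and -0.75 under all 13 alternatives, each of which called it. Its neighbour nlp-25 (WBGene00003763), with 1 other coding gene between them in the RefSeq gene order of WBcel235, moved the other way on very few counts: 4 and 6 in N2 and 13 and 11 in the mutant. nlp-25 rose by 1.53 (SE 0.569, edgeR adjusted p = 0.0293; 0.0204 to 0.244 over the alternatives) and did not pass when any 1 library was left out. Without N2 replicate 1 or 2 it had log2 fold changes of 1.15 and 1.96 (edgeR adjusted p = 0.244 and 0.0525), and without mutant replicate 1 or 2 of 1.56 and 1.51 (0.178 and 0.157).

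Opposite movement also occurred within a run of 6 adjacent genes, in the order nlp-34, nlp-31, nlp-30, nlp-29, nlp-28 and nlp-27. nlp-31 (WBGene00003769) had 1.73 and 1.62 CPM in N2 and 2.49 and 2.83 CPM in the mutant. It rose by 0.66 (SE 0.2, edgeR adjusted p = 0.00703, and 0.00421 to 0.161 over the alternatives). The nlp-31 call was lost with DESeq2, on the somatic scaling and without mutant replicate 2 (log2 fold change 0.57). nlp-28 (WBGene00003766) had 10.8 and 9.92 CPM in N2 and 8.65 and 8.28 CPM in the mutant and fell by 0.29 (SE 0.101, edgeR adjusted p = 0.0171; 2.41e-05 to 0.202 over the alternatives). The nlp-28 call was lost without N2 replicate 1 (-0.23, edgeR adjusted p = 0.153), mutant replicate 1 (-0.33, 0.0569) or mutant replicate 2 (-0.27, 0.12).

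The other genes of the run did not pass, and of these nlp-29, nlp-30 and nlp-34 were chosen after their values were seen. nlp-29, the best known wound- and infection-induced member of the run, had 4.13 and 3.99 CPM in N2 and 5.28 and 4.86 CPM in the mutant (0.32, edgeR adjusted p = 0.0668). nlp-27, the member of the run with most counts, had 102 and 93.0 CPM in N2 and 95.4 and 102 CPM in the mutant (0.02, edgeR adjusted p = 0.809). On the somatic scaling nlp-27 passed as lower (-0.193, edgeR adjusted p = 0.00795). nlp-30 and nlp-34 had log2 fold changes of 0.22 and 0.01 with SE of 0.307 and 0.297. Genes of this family resemble each other in sequence, how reads that match several genes were counted is not given in the sources used here, and the split of footprints among them is therefore uncertain. The differences between neighbours were not tested.

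Away from that run, nlp-33 and nlp-24 rose. nlp-33 (WBGene00003771), another antimicrobial gene of the list, had 23.0 and 23.3 CPM in N2 and 26.8 and 32.3 CPM in the mutant, a rise of 0.34 (SE 0.0698, edgeR adjusted p = 7.89e-05) that passed with each library left out. On the somatic scaling it had 0.13 and did not pass (edgeR adjusted p = 0.167; 2.5e-07 to 0.167 over the alternatives). nlp-24 (WBGene00003762) had 98.8 and 107.9 CPM in N2 and 109 and 122 CPM in the mutant, with a narrow gap between the groups. Its rise of 0.16 (SE 0.0486, edgeR adjusted p = 0.00904; 6.04e-05 to 0.577 over the alternatives) was lost without N2 replicate 1 (0.10, adjusted p = 0.0988) or mutant replicate 2 (0.08, 0.355), and the log2 fold change was -0.05 on the somatic scaling.

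**Figure D4:**
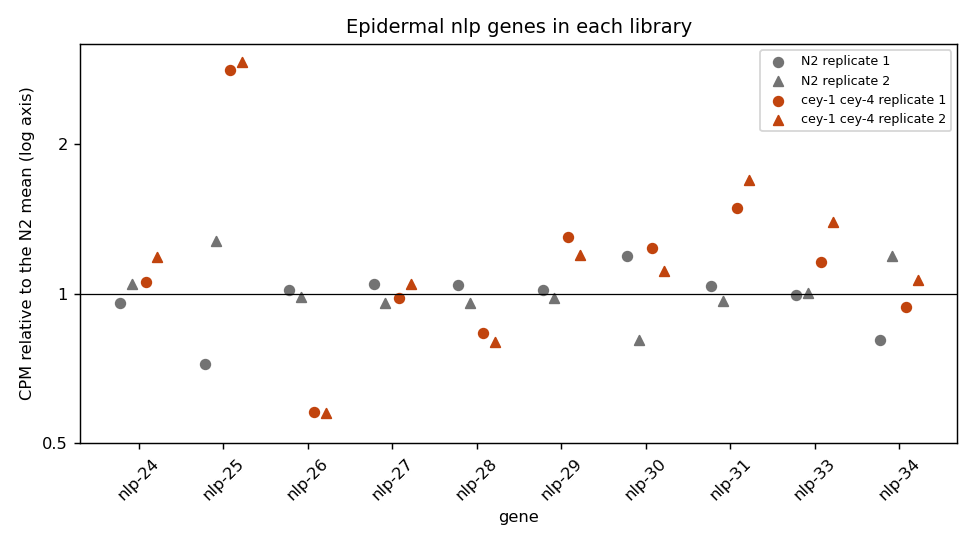
Footprint level of the 10 tested epidermal nlp genes in each library, relative to the mean of the N2 libraries (log axis); grey symbols are N2, orange symbols the mutant, and the line at 1 marks the N2 mean. nlp-26 and nlp-28 lie below the line in both mutant libraries. nlp-24, nlp-25, nlp-29, nlp-30, nlp-31 and nlp-33 lie above it in both, and nlp-27 and nlp-34 lie on both sides.

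Among the insulin-like genes, ins-37 rose and ins-6 fell. ins-37 (WBGene00002120) had 4.86 and 3.92 CPM in N2 and 6.37 and 7.15 CPM in the mutant, with no overlap. It rose by 0.61 (SE 0.131, edgeR adjusted p = 1.31e-04) and passed under all 13 alternatives at 0.39 to 0.78. ins-6, an activator of DAF-2 made in sensory neurons that promotes exit from the dauer stage, had 3.71 and 3.09 CPM in N2 and 2.45 and 2.43 CPM in the mutant. ins-6 (WBGene00002089) fell by 0.48 (SE 0.174, edgeR adjusted p = 0.0239; 4.63e-04 to 0.255 over the alternatives). The ins-6 call was lost without N2 replicate 1 (-0.34, edgeR adjusted p = 0.254), mutant replicate 1 (-0.49, 0.107) or mutant replicate 2 (-0.48, 0.0928).

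The other ins genes with most counts did not pass. ins-27 had 8.90 and 8.99 CPM in N2 and 10.2 and 9.89 CPM in the mutant, groups that did not overlap although the gene missed the threshold (0.17, edgeR adjusted p = 0.204). ins-26, listed as an activator of DAF-2, had 2.89 and 3.59 against 2.82 and 2.61 CPM (-0.24, edgeR adjusted p = 0.303), and ins-17, which opposes DAF-2 signalling, had 2.89 and 3.27 against 3.08 and 3.33 CPM (0.06, edgeR adjusted p = 0.829). The roles of ins genes as activators or antagonists of DAF-2 are taken from general knowledge, and for several of them reports differ by assay. The activator list held 6 genes, of which 5 were tested: 1 fell and 4 did not pass, with a median of -0.21. That is 20.0% called, against 34.0% of all tested genes. It left out the activator gene daf-28, whose name lies outside the rule and whose log2 fold change was 0.26 (edgeR adjusted p = 0.217). Of 4 listed antagonists 3 were tested and none passed (0 at an unadjusted p under 0.05 as well), with a median of 0.06.

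Single members of these lists, chosen after their values were seen, had wide errors. The activators ins-4, ins-3 and ins-7, the last of them made in the intestine as well as in neurons, had log2 fold changes of 0.25 (SE 0.247), -0.21 (SE 0.426) and 0.00 (SE 0.224). The antagonists ins-1 and ins-18 had -0.57 (SE 0.415) and 0.26 (SE 0.348). Of the 31 members below the counts needed, 15 were ins genes, 15 nlp genes and 1 an flp gene. Among the 38 ins genes, 12 of the 15 not tested had at most 3 counts in every library, and 5 were at 0 in all libraries. Of the nlp genes 15 of 69 were not tested, with at most 11 counts in any library, and 3 of those were at 0 throughout, among them nlp-22, a sleep-promoting peptide gene.

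Members often lie next to each other: 46 of the 138 lay in 14 runs with at most 4 other coding genes between neighbours. The longest run held 7 insulin genes (ins-24 to ins-30), of which 6 were tested and 0 passed in edgeR (0 also at an unadjusted p under 0.05, and 0 with DESeq2). On the somatic scaling ins-26 passed (-0.46, edgeR adjusted p = 0.0264), and without N2 replicate 2 ins-30 did. The run that holds ins-6 also contains ins-2 to ins-5 and ins-20, and ins-6 was the member of it that passed.

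Among 11 genes that process the precursors, falls numbered 4 and rises 1, while 6 genes missed the threshold (median log2 fold change -0.10, beside 0.01 over all tested genes). That is 45.5% called and 36.4% lower, against 34.0% and 16.6% of all tested genes. The median of their mean counts was 551.5, against 232.5 for all tested genes, and the part of depth in these shares was not tested. egl-3, the proprotein convertase of neurons, had 60.4 and 68.7 CPM in N2 and 44.65 and 46.95 CPM in the mutant and fell by 0.49 (SE 0.0548, edgeR adjusted p = 8.09e-11). aex-5, the convertase needed for the expulsion step of defecation, had 6.74 and 7.08 against 9.78 and 10.2 CPM and rose by 0.53 (SE 0.106, edgeR adjusted p = 3.89e-05). The convertase gene bli-4 had 49.5 and 50.7 against 49.9 and 49.9 CPM and did not pass (-0.005, edgeR adjusted p = 0.952; -0.22 and 0.00585 on the somatic scaling). Falls of 3 further genes, picked with their values in view, concern enzymes that act on the carboxy terminus: the carboxypeptidase genes egl-21 (-0.25) and cpd-2 (-0.26) and the amidating enzyme gene pghm-1 (-0.24). Without N2 replicate 2, egl-21 (-0.15, edgeR adjusted p = 0.0641) and pghm-1 (-0.16, 0.173) did not pass, and without mutant replicate 2 neither pghm-1 (-0.19, 0.107) nor cpd-2 (-0.31, 0.0799) did. cpd-2 was also lost without N2 replicate 1 (-0.23, edgeR adjusted p = 0.172) and mutant replicate 1 (-0.21, 0.274). Over the alternatives the adjusted p of these 3 ran up to 0.0641, 0.295 and 0.173 and down to 1.65e-09, 1.39e-04 and 1.25e-06.

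Among 10 dense-core vesicle genes there was 1 rise and 1 fall (median 0.17; 20.0% called, against 34.0% of all tested genes), and 8 genes missed the threshold. unc-108, the worm RAB-2 that acts in vesicle maturation, had 122 and 123 CPM in N2 and 102.6 and 107.8 CPM in the mutant and fell by 0.22 (SE 0.0423, edgeR adjusted p = 1.48e-05). pkc-1, a kinase that promotes peptide release, rose by 0.25 (SE 0.0708, edgeR adjusted p = 0.0032; 6.23e-04 to 0.743 over the alternatives), but not without N2 replicate 2 (0.21, adjusted p = 0.0505) or on the neuronal scaling (0.16, 0.083). hid-1, needed to keep peptides in the vesicles, had a log2 fold change of 0.05 and did not pass.

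Other peptide genes carry names outside the rule. Of 7 such genes, 1 passed (14.3%, against 34.0% of all tested genes), pdf-1: this circadian-type peptide gene had 10.2 and 9.88 CPM in N2 and 14.7 and 13.5 CPM in the mutant and rose by 0.49 (SE 0.0896, edgeR adjusted p = 6.82e-06). The insulin-like gene daf-28, an activator of DAF-2, had 3.19 and 2.98 against 3.88 and 3.51 CPM and did not pass (0.26, edgeR adjusted p = 0.217). Nor did snet-1, a peptide gene of olfactory memory (-0.15, edgeR adjusted p = 0.33), which passed as lower on the somatic scaling (-0.367, edgeR adjusted p = 0.0088). Of 102 peptide receptor genes 68 were tested, with 1 rise and 3 falls (median -0.006), or 5.88% called against 34.0% of all tested genes. The rise was that of the insulin receptor gene daf-2, which is counted again in the insulin pathway below. Their median mean count was 22.6, against 233 for all tested genes. The neuropeptide receptor gene npr-5 had 2.13 and 2.37 against 1.54 and 1.39 CPM and fell by 0.60 (SE 0.217, edgeR adjusted p = 0.0236; 0.001 to 0.241 over the alternatives), a call lost without N2 replicate 2 (-0.53, adjusted p = 0.121) or either mutant library (-0.69, 0.068 and -0.54, 0.128). dmsr-1, a receptor of FLP-13 peptides, had 3.40 and 3.99 against 4.47 and 4.99 CPM and narrowly missed the threshold (0.36, edgeR adjusted p = 0.0523; up to 0.482 over the alternatives). It passed with total count scaling, upper-quartile factors, the filter of at least 50 counts and a replicate block (0.36, edgeR adjusted p = 0.0419 with the block). Without N2 replicate 2, a fit with 1 N2 library, its log2 fold change was larger than in the main test, at 0.47.

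In the insulin pathway on which the ins peptides act, 3 of 9 genes rose and 1 fell (median 0.05), and the remaining 5 missed the threshold. The called share was 44.4%, against 34.0% of all tested genes. The median of the mean counts was 412.2 for these genes and 232.5 for all tested genes, and the part of depth was not tested. The receptor gene daf-2 itself had 15.6 and 14.6 CPM in N2 and 19.2 and 17.3 CPM in the mutant and rose by 0.27 (SE 0.0786, edgeR adjusted p = 0.00408; 9.79e-04 to 0.645 over the alternatives). The daf-2 call was lost without mutant replicate 1 (0.19, edgeR adjusted p = 0.184), on the somatic scaling (0.06, 0.645) and on the neuronal scaling (0.18, 0.0761), and DESeq2 did not make it (0.26, adjusted p = 0.139). aap-1, the adaptor subunit of PI3 kinase, fell by 0.51 (SE 0.0829, edgeR adjusted p = 4.95e-07). The FOXO gene daf-16 and the kinase gene sgk-1 rose by 0.21 and 0.28 (edgeR adjusted p = 7.02e-04 and 6.8e-04) and had -0.01 and 0.06 on the somatic scaling, where neither passed; daf-16 was also lost on the neuronal scaling (0.11, adjusted p = 0.089).

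**Figure D5:**
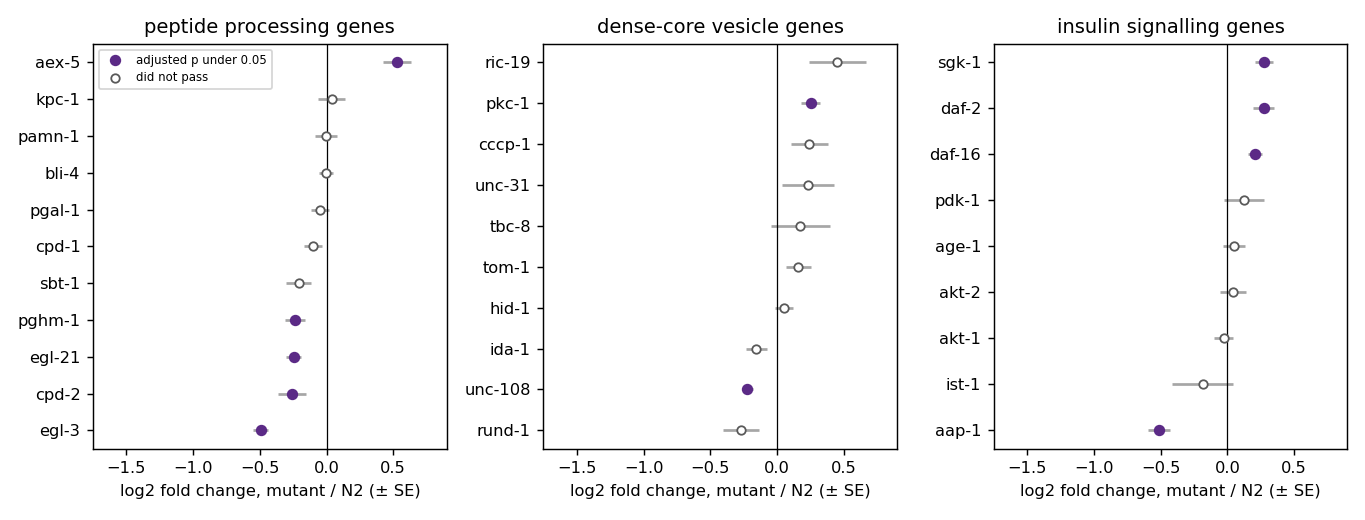
Log2 fold change of the mutant over N2 with its SE for the genes of peptide processing, dense-core vesicles and insulin signalling, filled where the adjusted p was under 0.05. egl-3 and aap-1 are lowest in their panels at -0.49 and -0.51, and aex-5 is highest of the processing genes at 0.53.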

How the data were processed

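Per the labels, ribosome-protected fragments were isolated from monosomes of whole young adult worms and sequenced. The authors deposited whole-number counts per gene for 4 libraries. The submitters' processing notes name Bowtie. The sources used here do not give build, annotation or counting rule. The log2 values that the authors deposited follow from the counts (pseudocount 8, within 0.0005) and were read for that check alone. Symbols were matched by WormBase identifier for 18778 of 20179 genes, and 3 features listed by sequence name were left out.

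The quasi-likelihood test of edgeR 4.0.16 (R 4.3.3) was run on the counts, 2-sided, after TMM scaling and filterByExpr (10 as its minimum), with glmQLFit made robust, genotype as the only term, adjusted p under 0.05 over all tested genes. SE is the absolute log2 fold change divided by the square root of F. CPM use TMM-scaled library sizes and are not divided by gene length, so they are compared between libraries, not between genes. The code of the test was also run on simulated counts that share a common dispersion across genes. That run does not measure how well the calls above hold. Within each group the libraries were further apart than sampling of reads allows (chi-square over its degrees of freedom: N2 24.6, mutant 8.38), so none was deposited again under another name. The features of precursor proteins that had been listed were not computed. A gene of the insulin signalling list is not reported here.

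Members and gene lists were chosen with earlier results of these data known. Named were all members that passed, the 5 with the highest mean CPM in each class and the mutated genes. Of each peptide pathway list, the 2 genes of lowest p and the 2 of highest mean CPM were named. Of the tissue lists only unc-44 and col-19 were named singly, after their values were seen. Other genes are said to have been chosen after their values were seen. Outside these rules also fall flp-23, nlp-22, nlp-32, ins-30 and genes given only as part of a run. Alternatives were DESeq2 1.42.0, limma-voom (limma 3.58.1), other scalings and filters, a replicate block and leaving out each library.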

Additional observations from a re-analysis of the deposited data

How the results depend on the processing

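Of the 18 members called, 6 (flp-13, ins-37, nlp-12, nlp-26, nlp-36 and nlp-49) passed under all 13 alternatives. DESeq2 called 7 of the 18 and no other member (5 higher, 2 lower: flp 1 and 0, nlp 3 and 2, ins 0 lower), and 1007 and 1171 of all genes. Somatic scaling gave 4 higher and 15 lower members (flp 1 and 3, nlp 2 and 10, ins 2 lower), 862 and 5118 genes, and log2 ratios of the summed levels of -0.088 for flp, -0.211 for nlp and -0.142 for ins. Neuronal scaling, chosen after seeing the data, gave 1 higher and 2 lower flp genes, 1492 and 3590 of all genes, and summed ratios of 0.028, -0.095 and -0.025. Without nlp-24 the summed nlp ratio was -0.034. Calls that DESeq2 did not make were those of flp-1, flp-6, ins-6, nlp-6, nlp-20, nlp-24, nlp-28, nlp-31 and nlp-40. Outside the members, DESeq2 did not make those of npr-5, pkc-1, sgk-1, daf-2, cpd-2 and pghm-1. With upper-quartile factors or limma-voom 0 flp genes were lower. With each library left out, 7 to 11 members were higher and 2 to 5 lower (flp 1 to 3 and 0 to 1, nlp 5 to 7 and 2 to 3, ins 0 to 2 lower), and 8 to 14 of the 18 calls were made again. With the replicate block the 18 members called were the same 18; the deviations of same-numbered libraries correlated at 0.0869, which does not show that the numbers pair the libraries. Reversed signs, mostly of genes with values near 0, occurred on the somatic scaling for nlp-24 (-0.048), nlp-40 (-0.102), flp-10 (-0.105), flp-14 (-0.087), flp-11 (-0.071), nlp-27 (-0.193), nlp-30 (-0.001), nlp-34 (-0.20), ins-27 (-0.05), ins-17 (-0.157), hid-1 (-0.159) and daf-16 (-0.006). On the neuronal scaling they occurred for nlp-27 (-0.078), nlp-34 (-0.081), ins-17 (-0.037) and hid-1 (-0.041). bli-4 had 0.041 with upper-quartile factors and 0.005 with at least 50 counts, nlp-34 -0.001 with DESeq2, and ins-7 0.002 with DESeq2, 0.043 with upper-quartile factors and 0.001 with limma-voom. With a library left out, signs turned within these ranges: flp-10 -0.019 to 0.268, flp-14 -0.117 to 0.384, nlp-27 -0.045 to 0.082, ins-17 -0.038 to 0.143, bli-4 -0.024 to 0.009, nlp-30 -0.02 to 0.54, nlp-34 -0.261 to 0.302, ins-3 -0.637 to 0.062, ins-7 -0.163 to 0.201 and ins-18 -0.065 to 0.643. Against the main scaling, the median of all tested genes moved by -0.214 on the somatic scaling and by -0.095 on the neuronal one. Why single signs turned was not tested. The members' median SE was 0.196 on the log2 scale, against 0.108 over all tested genes, and the part of depth in their share of calls was not tested.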
